A study of Mus musculus with 19 samples.

Results

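The mouse alpha-1-antitrypsin family, Serpina1a, Serpina1b, Serpina1c, Serpina1d and Serpina1e, was described across the livers of 19 mice that were each hybridised to 1 Affymetrix array. Members were found through the platform annotation: 5 of the 41345 probe sets name a member, each of the 5 names 1 copy alone, and no probe set that names several copies includes a member. The family was chosen by measured values, with earlier results of these arrays known: Serpina1d and Serpina1e were lower in KO than in WT livers on the normal diet and Serpina1e was higher in TG than in WT livers on the high-fat diet. The levels of the members and their differences between genotypes are therefore given as a description, with no test.

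The sample titles give 3 genotype codes and 2 diets, a high-fat diet (HFD) and a normal diet (ND). There were 3 arrays of KO on HFD, 3 of KO on ND, 4 of TG on HFD, 3 of TG on ND, 3 of WT on HFD and 3 of WT on ND. All mice were 2 to 3 months old, all had been on their diet for 4 weeks, and RNA was taken from whole liver. The gene under study, from the title, is Kcp, whose secreted product modulates BMP and TGF-beta signalling. The labels do not spell out the codes, and they name no allele, transgene promoter, strain, sex, litter or batch. No 2 titles repeat an animal number, the only basis for taking arrays as separate animals. The animal numbers on HFD and on ND come from different ranges, and whether these were separate cohorts is not stated, so diet and any such cohort cannot be told apart.

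Values are log2 intensities per probe set, normalized between arrays by the authors, and a difference of 1 is a doubling. The median of an array was 0.983 to 1.075. Values under 2 made up 63.8% of the table. Each array correlated with the others of its group at a mean r between 0.9688, for WT HFD replicate 1, and 0.979. Kcp read between 5.35 and 5.81 in TG, between 1.64 and 2.30 in KO and between 1.77 and 2.82 in WT. Whether its probes fall in a deleted part was not examined, so the KO label is not checked by them. Of 10 hepatocyte markers 9 had a probe set of their own. Among them albumin (Alb) read 12.26 to 12.51 and the hepatocyte transcription factor Hnf4a 8.55 to 9.14 over the 19 arrays, while the urea cycle enzyme Ass1 was low at 2.55 to 4.60. In whole liver, fewer cells of a type and less RNA per cell cannot be told apart.

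Alpha-1-antitrypsin is a serpin, a protease inhibitor that offers a bait loop to a serine protease and then traps the enzyme in a covalent complex. Hepatocytes make it in large amounts and secrete it into the blood, where its best known target in humans is the elastase of neutrophils. Humans have a single gene for it, whereas the mouse has several near-identical copies side by side, whose products differ mainly in the bait loop, and the number of copies differs between inbred strains. Serpina1e is known as a male-biased gene of mouse liver.

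In the RefSeq gene table of assembly GRCm38.p6 the members lie on chromosome 12 in the order Serpina1b, Serpina1d, Serpina1a, Serpina1c and Serpina1e, with 6 pseudogenes or other genes between them. All 5 members had a promoter window in RefSeq (GRCm38.p6), running from 250 bases before the gene start to 50 after it. The windows are shown for Serpina1d and Serpina1e, which stood apart in KO livers, and for Serpina1c, which did not. Capitals mark the longest run of bases that all 5 windows share.
Serpina1d (chr12:103773584-103773883, minus strand): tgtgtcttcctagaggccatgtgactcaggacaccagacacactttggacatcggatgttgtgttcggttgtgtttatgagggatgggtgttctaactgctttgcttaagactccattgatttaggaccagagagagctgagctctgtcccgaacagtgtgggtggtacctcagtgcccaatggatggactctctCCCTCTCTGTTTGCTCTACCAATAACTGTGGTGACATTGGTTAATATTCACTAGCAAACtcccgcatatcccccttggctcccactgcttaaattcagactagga
Serpina1e (chr12:103956848-103957147, minus strand): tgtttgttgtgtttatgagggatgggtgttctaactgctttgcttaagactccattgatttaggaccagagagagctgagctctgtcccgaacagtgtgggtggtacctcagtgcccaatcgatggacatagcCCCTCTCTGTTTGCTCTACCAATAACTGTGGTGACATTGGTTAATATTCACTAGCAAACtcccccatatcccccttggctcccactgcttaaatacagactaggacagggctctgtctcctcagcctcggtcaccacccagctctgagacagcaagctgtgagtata
Serpina1c (chr12:103904901-103905200, minus strand): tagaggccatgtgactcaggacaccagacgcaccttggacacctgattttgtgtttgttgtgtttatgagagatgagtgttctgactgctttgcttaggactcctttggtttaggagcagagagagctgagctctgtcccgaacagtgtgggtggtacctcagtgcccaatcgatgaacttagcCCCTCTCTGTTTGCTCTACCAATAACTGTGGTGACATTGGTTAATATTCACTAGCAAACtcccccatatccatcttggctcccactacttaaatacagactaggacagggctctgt

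The shared run was 59 bases long and was found, on either strand, in none of the other promoter windows among the 32851 in the table. Over the 10 pairs of members, the aligned parts of the windows were 91.7% to 98.4% identical, with 97.5% between Serpina1d and Serpina1e and 91.7% between Serpina1d and Serpina1c. The highest was between Serpina1b and Serpina1e, and Serpina1c and Serpina1e had 95.2%. Every pair with Serpina1e aligned over fewer bases than the other pairs, 237 for Serpina1d and Serpina1e against 289 for Serpina1d and Serpina1c. These shares are therefore not like for like. CCAAT was present in all 5 windows and in 37.4% of all windows, searched on both strands. TTCNNNGAA, the core read by STAT factors, was in none of the 5 and in 8.3% of all windows. These matches are letters in a window of the reference assembly and say nothing of the sequence these mice carry.

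Serpina1d was low in every KO liver, under 2 in 2 of the 6 arrays and at most 2.84 in the others, and bright in every other liver. It read 2.78, 1.93 and 2.84 in KO on HFD and 2.38, 0.76 and 2.19 in KO on ND. In TG livers it read 11.14, 11.03, 11.14 and 10.99 on HFD and 11.06, 11.10 and 10.98 on ND. In WT livers it read 10.59, 10.66 and 10.72 on HFD and 11.08, 11.09 and 10.95 on ND. The 6 KO arrays and the 13 TG and WT arrays were thus separate ranges, 0.76 to 2.84 against 10.59 to 11.14, with no array between them. On its own array the probe set was brighter than 38.5% of all probe sets in KO ND replicate 2 and brighter than 63.4% to 70.0% in the other KO arrays.

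KO minus WT was -8.14 (SE 0.31) on HFD, where KO averaged 2.52 ± 0.51 and WT 10.66 ± 0.06 (SD, n = 3 each). On ND it was -9.26 (SE 0.31), where the means were 1.78 ± 0.89 for KO and 11.04 ± 0.07 for WT (SD, n = 3 each). By size these were the largest differences of all 41345 probe sets in each comparison, and the comparisons share no arrays. The labels give no strain, and whether KO, TG and WT mice carry the same Serpina1 copies was not examined. Since a value this low may be background, the size of each difference is set by the floor of the array as well as by the gene. Whether other copies bind to the Serpina1d probes was not tested beyond 1 measurement: in the same KO arrays the Serpina1c probe set stayed between 11.02 and 11.35.

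**Figure D1:**
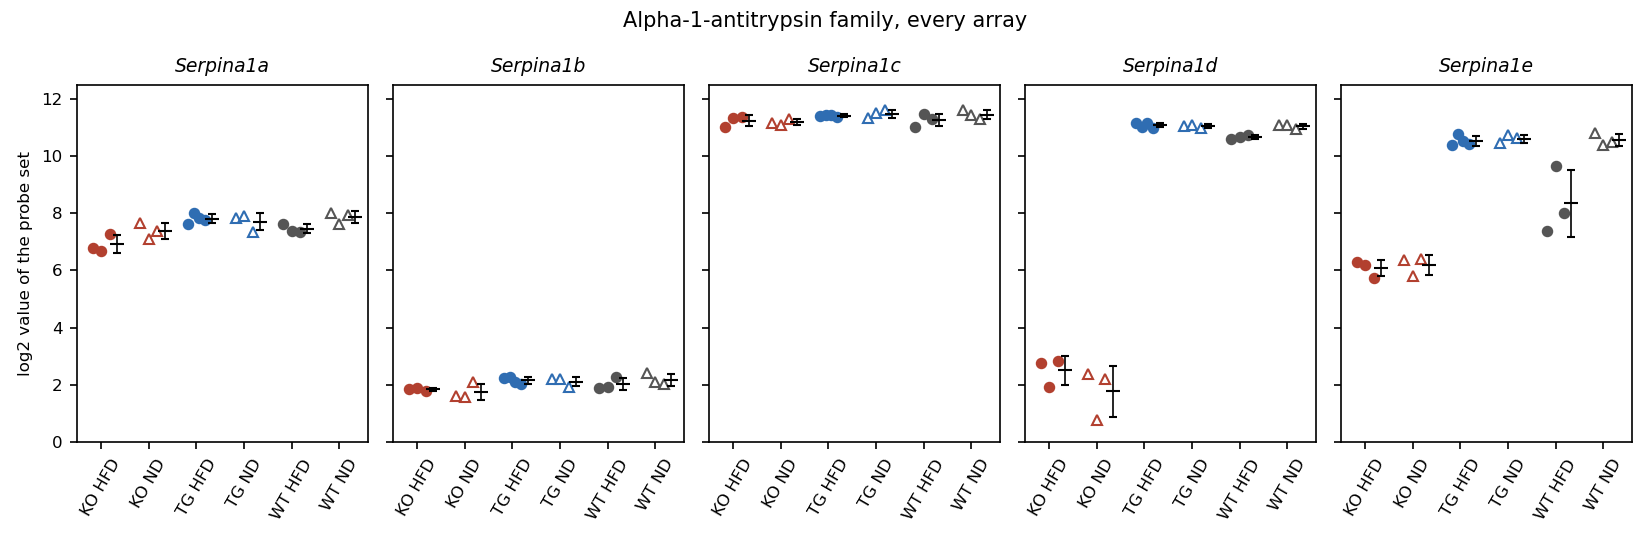
Log2 value of the probe set of each family member (vertical axis) in every array, by group (horizontal axis); filled circles are HFD and open triangles ND, and the bar beside each group is its mean ± SD (n = 3, or 4 for TG HFD). Serpina1d lies at 0.76 to 2.84 in the 6 KO arrays and at 10.59 to 11.14 in the other 13, and Serpina1e is low in KO and spread from 7.39 to 9.66 in WT on HFD.

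Serpina1e was also low in all KO livers, though less so than Serpina1d, and it was the member that varied most among WT livers. It read 6.28, 6.19 and 5.75 in KO on HFD and 6.37, 5.79 and 6.41 in KO on ND. In TG livers it read 10.38, 10.77, 10.53 and 10.41 on HFD and 10.44, 10.72 and 10.62 on ND. In WT livers it read 7.39, 9.66 and 8.01 on HFD and 10.79, 10.38 and 10.48 on ND. The KO range, 5.75 to 6.41, and the TG range, 10.38 to 10.77, did not meet, and the WT arrays on HFD lay between them while those on ND lay with TG.

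KO minus WT was -2.28 (SE 0.39) on HFD, where KO averaged 6.07 ± 0.28 and WT 8.35 ± 1.17 (SD, n = 3 each). On ND it was -4.36 (SE 0.39), a 20.6-fold difference, where the means were 6.19 ± 0.35 for KO and 10.55 ± 0.21 for WT (SD, n = 3 each). TG minus WT was 2.17 (SE 0.36) on HFD, where TG averaged 10.52 ± 0.18 (SD, n = 4), and 0.05 (SE 0.39) on ND, where TG averaged 10.60 ± 0.14 (SD, n = 3). The size of the HFD differences depended on single WT arrays. Without WT HFD replicate 2, the highest of its group, KO minus WT was -1.63 and TG minus WT was 2.82; without WT HFD replicate 1, the lowest, they were -2.76 and 1.69.

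Serpina1a, Serpina1b and Serpina1c showed no such split, and their differences between genotypes were between -0.55 and 0.35. Serpina1a read 6.69 to 7.66 in KO, 7.36 to 8.00 in TG and 7.36 to 8.01 in WT, ranges that overlap. Its KO minus WT difference was -0.55 (SE 0.19) on HFD, where KO averaged 6.91 ± 0.32 and WT 7.46 ± 0.15 (SD, n = 3 each), and -0.47 (SE 0.19) on ND. Serpina1c read 11.02 to 11.35 in KO, 11.33 to 11.60 in TG and 11.03 to 11.60 in WT, and KO minus WT was -0.02 (SE 0.13) on HFD and -0.27 (SE 0.13) on ND. The probe set of Serpina1b was low everywhere, at 1.57 to 2.09 in KO, 1.93 to 2.28 in TG and 1.90 to 2.40 in WT, so that differences in it can be hidden by background. Values of different probe sets are not comparable with each other, and none of these levels ranks 1 copy above another.

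In KO against WT all 5 members were lower in KO on each diet. On HFD the arrays of KO and WT did not overlap for 4 of the 5, all but Serpina1c, where 12.1% of all probe sets did not overlap. On ND they did not overlap for 3, namely Serpina1c, Serpina1d and Serpina1e, where the share over all probe sets was 15.4%. In TG against WT the arrays did not overlap for Serpina1d and Serpina1e on HFD (10.2% of all probe sets). On ND they overlapped for every member (13.9% of all probe sets did not), and TG minus WT was -0.16 to 0.05. Serpina1d was 11.07 ± 0.08 in TG (SD, n = 4) and 10.66 ± 0.06 in WT (SD, n = 3) on HFD, a difference of 0.41 (SE 0.29). These comparisons led to the choice of the family, and nothing is read from the counts.

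Of 9 Kupffer cell and macrophage markers, 8 rose in TG on HFD and 9 on ND, where 1.71% and 0.624% of all probe sets passed, while in KO none passed on HFD and 1, Marco, fell on ND, a call lost on leaving out any of the 6 arrays (up to 0.184, KO ND replicate 2). Their summed log2 value was 52.8 to 57.4 in TG and 38.9 to 42.5 in WT on HFD, and 54.5 to 58.7 in TG and 39.9 to 40.8 in WT on ND. In KO it was 41.8 to 47.9 on HFD and 38.5 to 44.2 on ND. The sum over 8 neutrophil markers was 5.5 to 14.4 in TG and 4.6 to 5.9 in WT on HFD, and 6.5 to 8.8 in TG and 4.9 to 6.4 in WT on ND. The sum over 6 endothelial markers was also higher in TG, at 34.9 to 38.2 against 32.5 to 34.3 in WT on HFD and at 37.0 to 37.5 against 34.1 to 35.5 in WT on ND. The sum over 5 cholangiocyte markers was 7.1 to 7.3 in KO and 7.2 to 8.6 in WT on HFD, and 6.2 to 7.7 in KO and 8.3 to 9.0 in WT on ND. The median difference of the cholangiocyte markers in KO minus WT on ND was -0.07 (-0.001 over all probe sets). The neutrophil and cholangiocyte sums are low for their number of markers, so background may make up much of them. No single marker of hepatocytes, neutrophils, cholangiocytes, liver endothelium or pancreatic acinar cells passed in any of the 7 comparisons, and of 7 stellate cell markers at most 2 did. The part of these cells in the KO and TG differences was not tested.

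**Figure D2:**
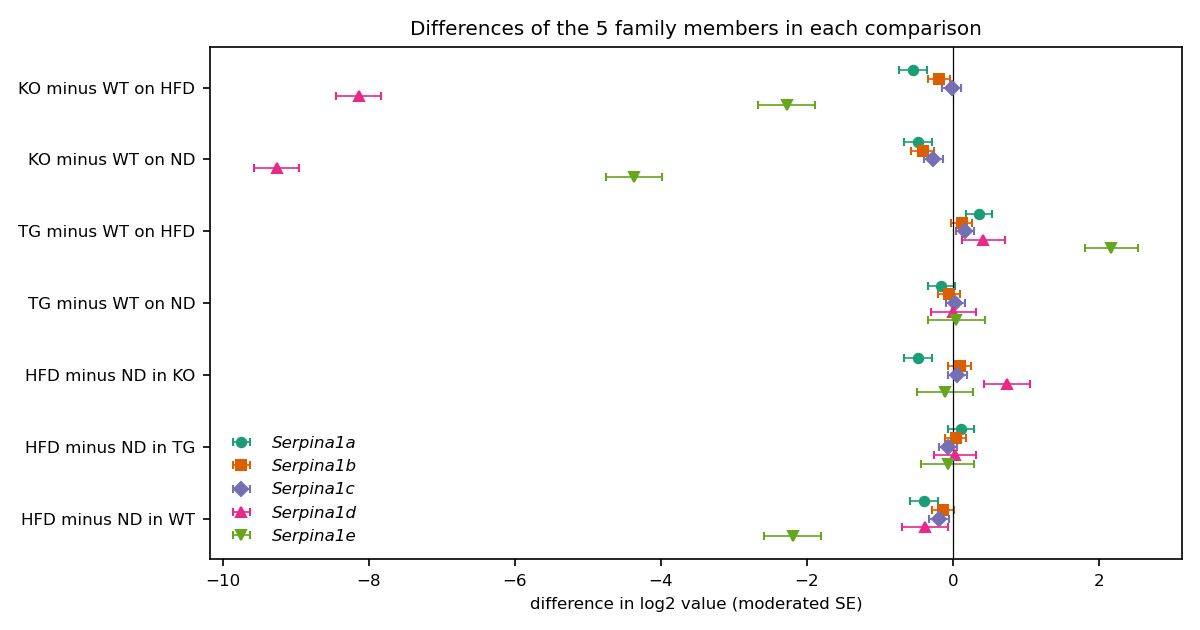
Difference in log2 value (horizontal axis) for each of the 5 members in 7 comparisons (vertical axis), with the moderated standard error as bars. Serpina1d and Serpina1e stand far below 0 in KO minus WT, and Serpina1e stands apart from the other members in TG minus WT on HFD (2.17) and in HFD minus ND in WT (-2.20).

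The order of the 6 groups was alike in the 2 members that split. For Serpina1d the means ran TG HFD, TG ND, WT ND, WT HFD, KO HFD and KO ND, from 11.07 down to 1.78. TG HFD, TG ND and WT ND were within their spread of each other, WT HFD lay 0.38 below WT ND, and the KO groups were within their spread of each other. For Serpina1e the order was TG ND, WT ND, TG HFD, WT HFD, KO ND and KO HFD, from 10.60 down to 6.07. Its steps beyond the larger SD of the neighbouring groups were those around WT HFD, 2.17 on each side. Among the other members, the only step beyond the larger SD was that of Serpina1a between KO ND and KO HFD (7.39 and 6.91), whose arrays overlap.

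Over the 19 arrays Serpina1d and Serpina1e correlated with r = 0.91 (Spearman 0.80), and the other pairs with r between 0.45 and 0.75. Once each group's mean was taken away, r between Serpina1d and Serpina1e was 0.20, so that the likeness was one of group means. The highest r that remained was 0.59, between Serpina1c and Serpina1e. Arrays are shared by all these values, and r is given as a description.

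The diet comparison asked whether the family differed between HFD and ND, each given for 4 weeks, within each genotype. Serpina1e was lower on HFD in WT livers by 2.20 on the log2 scale, with 8.35 ± 1.17 on HFD and 10.55 ± 0.21 on ND (SD, n = 3 each), and all 3 HFD arrays lay below all 3 ND arrays. In the limma model over all probe sets this difference of -2.20 (SE 0.39) had an adjusted p of 0.0125 (Benjamini-Hochberg over 41345 probe sets, two-sided). The same WT arrays had entered the genotype differences that led to the choice of the family. In those, WT was above KO on ND and below TG on HFD for Serpina1e. That choice favours a fall on HFD in WT, so this p is not independent evidence. The call was lost without WT ND replicate 1 (-2.08, adjusted p = 0.0618), without WT HFD replicate 3 (-2.02, adjusted p = 0.0670), and with the compared arrays alone (adjusted p = 0.347). Serpina1e was the 1 member of 5 that passed in WT, where 0.605% of all probe sets passed, and nothing is read from this count.

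No member passed between HFD and ND in KO or in TG, where 0.3% and 0.317% of all probe sets passed. The arrays of the 2 diets overlapped for all 5 members in KO and in TG (14.5% and 8.07% of all probe sets did not overlap), and did not for Serpina1d and Serpina1e in WT (13.4%). Serpina1e differed by -0.11 (SE 0.39, adjusted p = 0.972) in KO and by -0.08 (SE 0.36, adjusted p = 0.984) in TG. Serpina1d averaged 2.52 ± 0.51 on HFD and 1.78 ± 0.89 on ND in KO (SD, n = 3 each), a difference of 0.74 between low values (SE 0.31, unadjusted p = 0.0300, adjusted p = 0.479) that was 0.23 without KO ND replicate 2. In WT it was 0.38 lower on HFD (SE 0.31, adjusted p = 0.792), although its arrays on HFD, 10.59 to 10.72, and on ND, 10.95 to 11.09, did not overlap. That gap is large beside the spread within either WT group, whose SD were 0.06 and 0.07, while the model's error also carries the wider spread of the low KO arrays. Serpina1a differed by -0.48 in KO (unadjusted p = 0.0242, adjusted p = 0.450) and by -0.40 in WT (adjusted p = 0.542). The diet difference of Serpina1e in KO exceeded that in WT by 2.08 (SE 0.55), and that in TG exceeded that in WT by 2.12 (SE 0.53), given as a description.

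Among the measured genes of the 20 on each side of the cluster, none was seen to fall in KO livers as Serpina1d and Serpina1e did. Many could not have shown a fall. Of the 20 genes on each side of the cluster, 23 of 40 had a probe set of their own, and none was lower in KO past the threshold on either diet. Many of them read low in WT on ND too, such as Cox8c (0.37), Unc79 (0.50), Prima1 (0.17) and Serpina3b (0.41). Higher in WT on ND were Ddx24 (5.52), Ifi27 (5.94), Ppp4r4 (3.68), Serpina10 (8.84), Serpina6 (9.49), Serpina11 (6.09), Serpina12 (2.67) and Serpina4-ps1 (7.99). On HFD none of the 23 passed in KO against WT, where 0.143% of all probe sets passed, and the median difference was -0.02 (-0.009 over all probe sets). On ND 3 rose in KO, where 1.4% of all probe sets passed, and the median was 0.05 (-0.001 over all). These 3 were serpins of the same clade that follow Serpina1e in chromosome order. Outside these 20 genes on each side, Tc2n and 5033406O09Rik on chromosome 12 were lower in KO past the threshold on both diets. Tc2n differed by -1.59 on HFD and -2.62 on ND, and 5033406O09Rik by -1.53 and -1.76. Both were picked after their values were seen.

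Serpina11, the gene next to Serpina1e, read 7.40, 7.40 and 7.68 in KO on ND against 6.20, 6.00 and 6.08 in WT on ND. KO minus WT was 1.40 (SE 0.24, adjusted p = 0.00600). On HFD the difference was 0.93 (adjusted p = 0.233). Serpina12, which encodes the secreted serpin vaspin, rose by 1.87 in KO on ND (SE 0.35, adjusted p = 0.0107), a call lost without KO ND replicate 1 (adjusted p = 0.0533), and WT ND replicate 1 was low at 1.56; without that array the difference was 1.31. Serpina5, the inhibitor of activated protein C, rose by 1.02 between low values, at most 2.28 (adjusted p = 0.0323), a call lost on leaving out any of 5 arrays (up to 0.122, WT ND replicate 3). On the other side of the cluster, Serpina1f differed between KO and WT by -0.10 on HFD and 0.37 on ND, the coagulation inhibitor Serpina10 by 0.35 and -0.003, and the corticosteroid-binding globulin Serpina6 by -0.01 and 0.42 (adjusted p = 0.160 or higher in each).

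**Figure D3:**
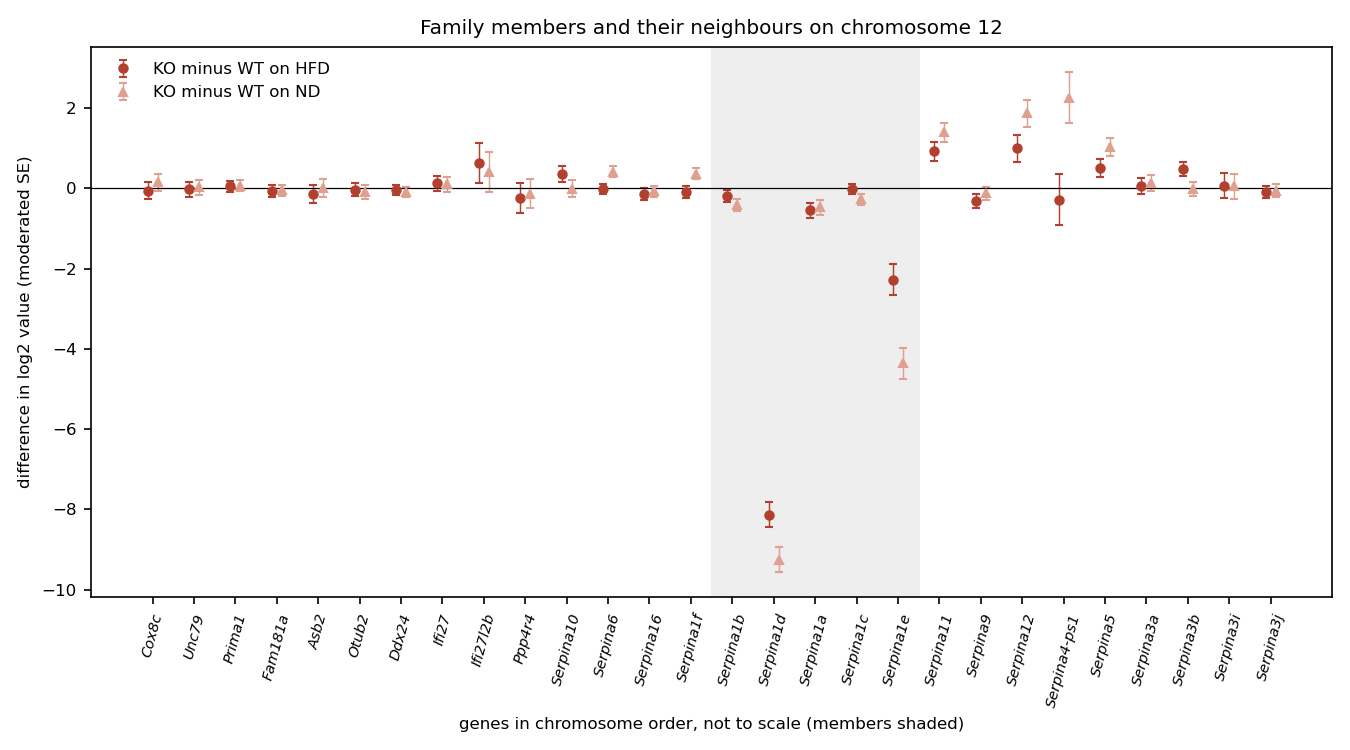
KO minus WT difference in log2 value (vertical axis, bars are moderated standard errors) for the members, shaded, and the 23 neighbouring genes with a probe set of their own, in chromosome order and not to scale (horizontal axis). Circles are HFD and triangles ND. Serpina1d and Serpina1e lie far below 0 while most other genes lie near it, many of them with low values in WT as well. Serpina11 and Serpina12 lie above 0, as does Serpina4-ps1 on ND (2.26, adjusted p = 0.110).

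Among the neighbours, the serpin Serpina6 and the serpin pseudogene Serpina4-ps1 passed between HFD and ND. Serpina6 rose on HFD in WT by 0.93 (SE 0.13, adjusted p = 0.00209), with 10.37, 10.39 and 10.49 on HFD against 9.56, 9.39 and 9.51 on ND. In TG it rose by 0.70 (adjusted p = 0.0175), a call lost on leaving out either of 2 arrays (up to 0.135, TG ND replicate 1), and in KO the difference was 0.50 (adjusted p = 0.158). The pseudogene Serpina4-ps1 fell on HFD in KO by 3.55 (adjusted p = 0.0312), a call lost on leaving out any of the 6 arrays (up to 0.122, KO HFD replicate 2). In TG against WT the 1 neighbour that passed was the interferon-inducible Ifi27, named here after its values were seen, at 1.50 on HFD (adjusted p = 0.000376) and 1.75 on ND (adjusted p = 0.000208).

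Genes named for their roles around alpha-1-antitrypsin were read beside the share of all probe sets that passed. That share was 0.143% in KO on HFD, 1.4% in KO on ND, 1.71% in TG on HFD and 0.624% in TG on ND. For diet it was 0.605% in WT, 0.3% in KO and 0.317% in TG. Of 15 measured serpins elsewhere in the genome, the plasmin inhibitor Serpinf2 fell in KO on ND (-0.75, adjusted p = 0.0173, lost on leaving out any of 4 arrays, up to 0.0903 for KO ND replicate 2), and none passed in KO on HFD or in TG. Serpinb8 rose on HFD in WT (1.46) and in KO (1.37), calls lost on leaving out 2 and 6 single arrays. Of 11 serine proteases that the protein inhibits or that resemble its targets, none passed in any of 7 comparisons, and neutrophil elastase itself (Elane) was low, between 0.67 and 1.61 in 18 arrays and 2.91 in TG HFD replicate 2. Of 25 genes of folding, export and degradation in the endoplasmic reticulum, the path a secreted serpin takes, Derl3 alone passed, in TG on ND (1.10, adjusted p = 0.0457, lost on leaving out any of 5 arrays, up to 0.202 for TG ND replicate 3). The median difference of that list was 0.08 in KO on HFD and 0.09 on ND, against -0.009 and -0.001 over all probe sets.

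Of 15 measured regulators of the family, none passed in KO on HFD (0.143% of all probe sets did) and 2 rose in KO on ND (1.4% passed). These were the interleukin-6 receptor Il6ra (1.46, adjusted p = 0.00915, lost without KO ND replicate 3 at 0.0519) and the acute-phase factor Cebpb (1.50, adjusted p = 0.0329, lost on leaving out any of 5 arrays, up to 0.140 for WT ND replicate 2). In TG on HFD, where 1.71% of all probe sets passed, Il6ra rose by 1.53 (adjusted p = 0.00395), and the hepatocyte factor Cebpa fell by 0.57 (adjusted p = 0.0249, lost on leaving out any of 5 arrays, up to 0.1 for WT HFD replicate 2). On HFD against ND in KO, where 0.3% of all probe sets passed, Il6ra fell by 1.31 (adjusted p = 0.0496, lost on leaving out any of 5 arrays, up to 0.208 for KO HFD replicate 1). Of 23 acute-phase and other plasma proteins, the metallothioneins Mt1 and Mt2 rose in KO on ND and in TG on each diet, and none passed in KO on HFD. The share of all probe sets that passed was 1.4% in KO on ND, 1.71% in TG on HFD, 0.624% in TG on ND and 0.143% in KO on HFD. In TG on ND the iron-carrier binding protein Lcn2 (3.73, adjusted p = 0.0200) and the serum amyloid Saa3 (2.02, adjusted p = 0.0493) also rose, calls lost on leaving out any of 5 and any of 6 arrays (up to 0.0966 and 0.211, each for TG ND replicate 1). In KO on ND Mt2 rose by 3.21 (adjusted p = 0.0248) and Mt1 by 2.32 (adjusted p = 0.0414), calls lost on leaving out any of 5 arrays (up to 0.135, KO ND replicate 3). Of 6 receptors that clear serpin complexes, Vldlr alone passed, in 3 comparisons, where 1.71%, 1.4% and 0.605% of all probe sets passed in turn. It fell in TG on HFD by 1.68, rose in KO on ND by 1.40 (lost on leaving out any of 5 arrays, up to 0.173 for WT ND replicate 2) and rose on HFD in WT by 2.01. Its diet difference in TG was lower than that in WT by 2.47 (adjusted p = 0.0443), in a comparison where 0.0943% of all probe sets passed.

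Because Serpina1e is a male-biased gene, 21 genes of growth hormone signalling and male-biased expression were set beside it. In KO on ND, where 1.4% of all probe sets passed, 4 fell and 1 rose, with a list median of -0.17 (-0.001 over all). The major urinary protein Mup20 fell by 0.89 (SE 0.14, adjusted p = 0.00323), the elongase Elovl3 by 1.85 (adjusted p = 0.00275), the repressor Bcl6 by 2.84 (adjusted p = 0.0173, lost on leaving out any of 5 arrays, up to 0.0878 for WT ND replicate 2) and the signal transducer Stat5b by 0.72 (adjusted p = 0.0345, lost on leaving out any of 5 arrays, up to 0.164 for WT ND replicate 2). The gene that rose in KO on ND was Trim24, by 0.70 to 0.95 with 1 array left out at a time. Its call was lost on leaving out any of 4 arrays (adjusted p up to 0.102, KO ND replicate 3). In KO on HFD none of the 21 passed, where 0.143% of all probe sets did. In TG on HFD, where 1.71% of all probe sets passed, 2 rose and 3 fell. The steroid dehydrogenase Hsd3b5 rose by 2.27 (adjusted p = 0.0149, lost at 0.0587 without WT HFD replicate 3), and Elovl3 fell by 2.33 (adjusted p = 0.000279). C8a also rose, and Cyp4a12a and Cyp4a12b fell. The calls of C8a and Cyp4a12b were lost on leaving out 1 and 2 single arrays. On HFD against ND in WT, where 0.605% of all probe sets passed, Hsd3b5 fell by 3.11 (adjusted p = 0.00456) and Elovl3 by 1.48 (adjusted p = 0.0245, lost on leaving out any of the 6 arrays, up to 0.111 for WT ND replicate 2). Elovl3 also fell on HFD in TG, where 0.317% of all probe sets passed. With 1 array left out at a time that difference was -3.74 to -3.32 (adjusted p at most 0.000209).

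The genes whose profile over the 19 arrays was most like that of Serpina1d (Pearson r, genes outside the family) were Sardh (r = 0.92), which breaks down sarcosine, 5033406O09Rik (r = 0.90), the complement regulator Cd59a (r = 0.89), the sphingolipid enzyme Sptlc2 (r = 0.88) and Rin2 (r = 0.86). Of these 5, 2 lie on chromosome 12, 5033406O09Rik and Sptlc2, and 3 on chromosome 2. Most opposite were Atp8b5 (r = -0.96), the riboflavin kinase Rfk (r = -0.93) and Exd1 (r = -0.93). Atp8b5 was low throughout, at 1.93 to 2.05 in KO and 0.60 to 1.21 elsewhere, and Exd1 averaged 3.77 and 3.48 in KO on HFD and ND against 2.40 and 2.03 in WT.

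For Serpina1e the most alike were Ivd (r = 0.92), an enzyme of leucine breakdown, the IGF-binding protein Igfbp2 (r = 0.92), the cell adhesion molecule Cdh1 (r = 0.92), Mup20 (r = 0.89) and the transporter Slc22a30 (r = 0.89), none on chromosome 12. The neurotrophin receptor Ntrk2 was most opposite (r = -0.90). Igfbp2 read 6.30, 6.95 and 6.29 in WT on HFD against 8.16, 8.11 and 8.22 in WT on ND, and Cdh1 read 4.19, 4.83 and 4.40 against 7.04, 6.04 and 6.06. WT HFD replicate 2, the highest of its group for Serpina1e, was also the highest of its group for these 2 genes and, at 2.97, for Ntrk2, whose pattern runs the other way. In TG on HFD Igfbp2 stayed at 8.45 to 8.79, and in KO on HFD it read 5.62 to 6.78. These genes were picked for their correlation, which says nothing of shared control.

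**Figure D4:**
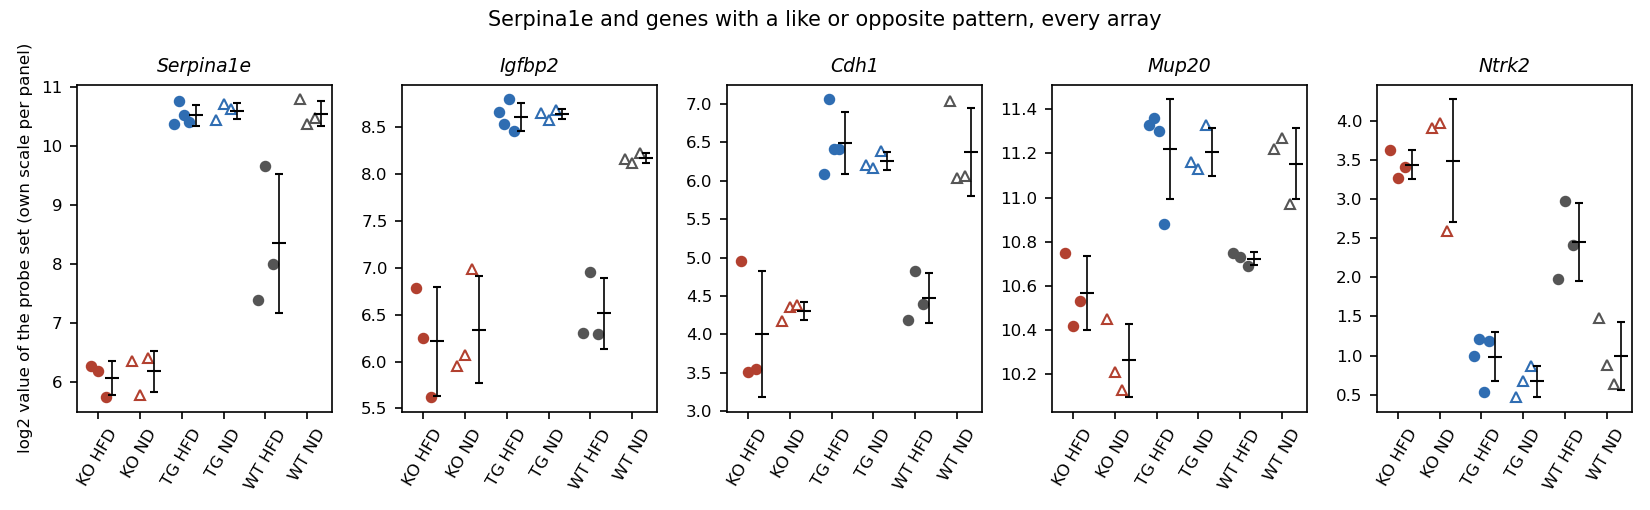
Log2 value in every array (vertical axis, own scale per panel, not starting at 0) by group (horizontal axis) for Serpina1e, 3 genes with a like profile and Ntrk2 with an opposite one; filled circles are HFD, open triangles ND, and bars the mean ± SD. In Serpina1e, Igfbp2 and Cdh1 all WT arrays on HFD lie below all WT arrays on ND.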

How the data were processed

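The authors deposited 1 log2 value per probe set and array, already normalized. The submitters' processing notes list affy, RMA and limma but do not say how each was used; that the scale is log2 was taken from RMA and from the range of the values. Symbols came from the platform annotation, in which 23521 probe sets name 1 gene, 1814 several and 16010 none here. All 41345 probe sets and 19 arrays entered 1 model of 6 group means in limma 3.58.1 (R 4.3.3; lmFit, eBayes, 13 residual and 2.64 prior degrees of freedom), with Benjamini-Hochberg adjustment within each comparison and a threshold of 0.05. No filter on dim probe sets was used. The procedure was tested on simulated data for HFD minus ND in WT, with 50 probe sets of mean 2 or more changed by each size. It recovered 8% of changes of 0.5, 44% of changes of 1 and 86% of changes of 2 and of 3, with 0 false calls. A gene that did not pass may therefore still differ. Where a gene had several probe sets, the one with the highest mean stood for it. The members, the gene lists and the alternatives were chosen with earlier results of these data known. For members the genotype comparisons carry no p. Genes were named by a rule: all members, those most alike by Pearson r, up to 4 of each list and up to 8 neighbours that passed, and fixed genes; the text gives a selection. The labels do not say that replicates came from separate cages or days, and p-values measure only the spread between these arrays. No array pair had identical values. Precision is limited by the number of arrays.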

Additional observations from a re-analysis of the deposited data

Results flagged for a closer look

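In the group of 4 TG HFD arrays, 3 of 45 genes tested had an array that stood apart from the others by Dixon's criterion at 95%, a criterion that chance meets in about 1 in 20 groups. No family member was among them. Elane was high in TG HFD replicate 2, at 2.91 against 0.67 to 1.05 in the other 3 arrays. Elovl3 was low in the same array, at 6.34 against 7.01 to 7.12. Mup20 was low in TG HFD replicate 4, at 10.88 against 11.30 to 11.36.

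For Serpina1d the diet difference ran opposite ways in KO and in WT: every KO array on HFD lay above the KO mean on ND, by 0.74 on average, and every WT array on HFD lay below the WT mean on ND, with a mean difference of -0.38. The difference of 1.12 between them was not tested, and the KO values are low, 0.76 to 2.84. The KO arrays on HFD and on ND overlapped. Without KO ND replicate 2, the lowest at 0.76, the KO difference was 0.23. For the lipoprotein receptor Vldlr, which belongs to the family of receptors that clear serpin complexes, the diet difference in TG minus that in WT was -2.47 (limma adjusted p = 0.0443).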

How the results depend on the processing

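No paired analysis was possible because the labels number animals without repeating a number between groups. The alternative of averaging several probe sets of a member was not run, since each member has 1. Without 1 array at a time, Serpina1e ranged from -2.85 to -1.72 in HFD minus ND in WT. With only the compared arrays that difference was -2.20 (adjusted p = 0.347), and with WT HFD replicate 1 and TG HFD replicate 2 left out together, a choice made after seeing the data, it was -1.72 (adjusted p = 0.0589); under each of these the count of members that passed in WT was 0 in place of 1, and without 1 array it was 0 to 1. Neighbours that passed numbered 1 to 3 without 1 array in KO minus WT on ND (3 with all), 1 to 2 in TG minus WT on HFD, 0 to 0 in HFD minus ND in KO (1 with all) and 0 to 1 in HFD minus ND in TG. In TG minus WT on HFD they numbered 3 among probe sets of mean 2 or more and 2 with 1 probe set per gene (1 in all). With only the compared arrays they numbered 0 in TG minus WT on ND and in HFD minus ND in WT and in TG, in place of 1 in each. The KO minus WT differences of Serpina1d and Serpina1e kept their sign in all alternatives run. The arrays of KO and WT did not overlap for either gene, so leaving out arrays could not have changed that sign. Nothing is read from it. Over all probe sets, the compared arrays alone gave 136 calls in place of 579 in KO minus WT on ND, 15 in place of 59 on HFD, 81 in place of 258 in TG minus WT on ND, 99 in place of 707 on HFD, and 36, 8 and 18 in place of 250, 124 and 131 for diet in WT, KO and TG. Probe sets of mean 2 or more gave 93, 1069, 210 and 250 calls in KO minus WT and TG minus WT on HFD and for diet in KO and TG, and 1 probe set per gene gave 201 for diet in TG. Without the 2 arrays named above, TG minus WT on HFD had 241 calls.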

Other observations

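Outside the family, 16 probe sets passed in KO against WT on both diets in 1 direction, 6 lower in KO and 10 higher. They were 28.1% of the probe sets outside the family that passed on HFD and 2.77% of those on ND. Of the 13 named genes outside the family, 2 lie on chromosome 12, where 3.44% of all singly named probe sets lie: Tc2n (-1.59 on HFD and -2.62 on ND, adjusted p = 0.0394 and 0.000136) and 5033406O09Rik (-1.53 and -1.76, adjusted p = 0.0461 and 0.00393). As3mt, Asah2, Rab11fip2 and Gstp3 lie on chromosome 19, and Cd59a, Slc43a3 and Exd1 on chromosome 2. The shares of all singly named probe sets on chromosomes 19 and 2 were not computed, so the counts cannot be compared between chromosomes. The largest rise was that of the glutathione transferase Gstp3 (3.20 on HFD and 4.79 on ND, adjusted p = 0.000966 and 7.28e-06), and the water channel Aqp4 rose by 3.03 and 1.91 (adjusted p = 0.00131 and 0.0148). These genes were chosen after their values were seen.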
